A study of Mus musculus with 24 samples.

Results

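Trimethylation of histone H3 at lysine 4 (H3K4me3) formed 1842 broad domains in cancer-associated fibroblasts that were broad in neither of the other fibroblast types examined. They were taken from a list of 27339 H3K4me3 regions in WT MMTV-CAFs, of which 3002 were wider than 4000 bp and were called broad. A broad region was kept when it overlapped no region wider than 4000 bp in WT MEFs or in WT wound-healing fibroblasts, which left 1842 (61.4% of the broad regions). The other 1160 broad regions were broad in at least one of those types as well. The members were thus chosen by measured widths in these 3 lists, so their widths there are a description and not a result. All 7 H3K4me3 lists together held 136989 regions.

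The cells were cultured mouse fibroblasts, all of them immortalised by overexpressing HPV E6/E7. MMTV-CAFs (strain FVB/NJ) came from mammary tumours of MMTV-PyMT mice, in which the mouse mammary tumour virus promoter drives the polyomavirus middle T antigen. Mouse embryonic fibroblasts (MEFs) came from embryos at E10-13 and wound-healing fibroblasts from dorsal wounds at day 10, both labelled C57BL/6, so tumour origin, strain and culture cannot be told apart. The H3K4me3 lists of WT and SG MMTV-CAFs covered 20 chromosomes and those of MEFs and wound-healing fibroblasts 21. The sex of the cultures was not examined and cannot be told apart from these either. WT stands for cells with intact Prrx1, where the study used a non-targeting guide (SgNS) as the control. SG stands for deletion of Prrx1 with CRISPR/Cas9, and KI for MEFs from mutant embryos (129S-Prrx1tm1Jfm), read here as the lacZ insertion into the Prrx1 homeodomain that the study describes. Whether the deleted cultures were clones is not given in the sources used here. Each group had 1 library, so no difference could be tested against the spread between cultures. Intervals on shares are Wilson 95% intervals and those on median ratios are 95% order-statistic intervals. Both cover the spread over regions of 1 library only.

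H3K4me3 marks the start sites of active and poised genes, usually as a compact peak just downstream of the transcription start site (TSS). At some genes the mark spreads several kilobases into the transcribed part, and such broad domains are known from genes that define a cell's identity and from genes with strong, steady transcription. Prrx1 is a paired-related homeobox factor of mesenchymal cells. Acetylation of H3 at lysine 27 (H3K27ac) marks active promoters and enhancers.

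The word "only" in the description of these domains holds for the threshold and not for the mark. In WT MEFs 1791 members (97.2%) overlapped an H3K4me3 region of some width, and in WT wound-healing fibroblasts 1790 did (97.2%). The median width of the widest overlapping region was 3031.5 bp in WT MEFs and 2918 bp in WT wound-healing fibroblasts, against 4704 bp in WT MMTV-CAFs. In 1133 members (61.5%) the widest region in those types was over 3000 bp, short of the threshold by at most 1000 bp. In a further 559 it was over 2000 and up to 3000 bp, in 82 over 1000 and up to 2000 bp, and in 31 at most 1000 bp. In 37 members (2.01%) neither type had a region of any width.

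Widths also differed between the lists as a whole. Among regions of at most 4000 bp paired between lists, the median width relative to WT MMTV-CAFs was 0.776 in WT MEFs (10938 pairs) and 0.732 in WT wound-healing fibroblasts (10775 pairs). At members the ratio was 0.616 and 0.586, with a missing region counted as 0. The rule was set on these same widths, so the lower ratio at members is not a result. When the WT MEF and WT wound widths were divided by the list-wide ratios of 0.776 and 0.732, 719 members remained by the same rule. The division widens those regions, so it could only remove members from the 1842. With the 949 widest regions of each WT list in place of a fixed width, 297 were found only in WT MMTV-CAFs, and 291 of them were members. The same rule found 53 regions broad only in WT MEFs and 33 broad only in WT wound-healing fibroblasts. How far list-wide width accounts for the 1842 was not tested beyond these counts.

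**Figure D1:**
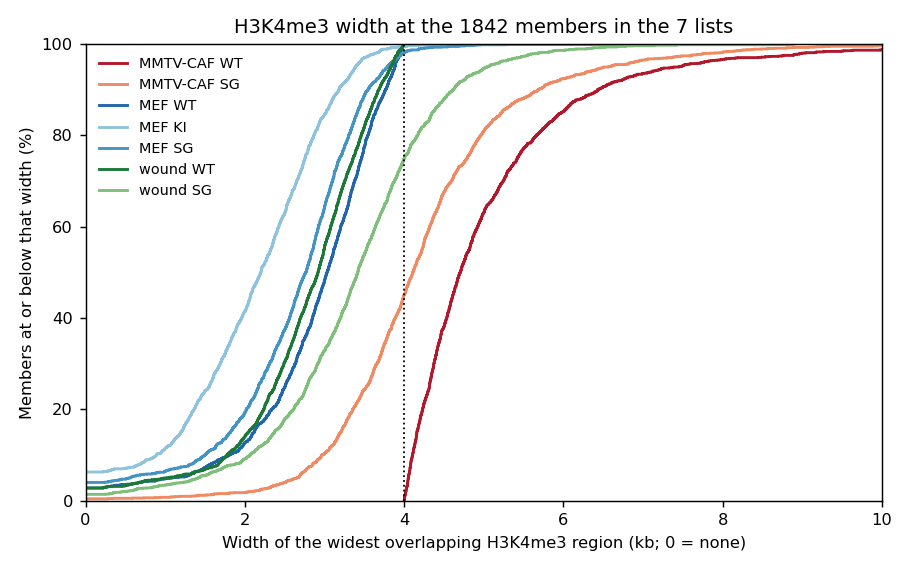
Cumulative share of the 1842 members (y axis, %) by the width of the widest overlapping H3K4me3 region (x axis, kb) in each of the 7 lists; the dotted line is the 4-kb threshold that chose the members. The medians ran from 2201.5 bp in KI MEFs to 4704 bp in WT MMTV-CAFs, and SG MMTV-CAFs (4108 bp) lay nearest to WT MMTV-CAFs.

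The label of a tumour fibroblast was checked against marker genes. Of 12 fibroblast markers, 9 carried H3K4me3 at a TSS in WT MMTV-CAFs, 8 of them as broad regions. Of 18 mammary epithelial markers 3 carried a region and 0 a broad one, and the 7 immune markers carried 0. Of the other stromal classes, 3 of 6 pericyte, 3 of 6 adipocyte and 1 of 8 endothelial markers carried a region, and 0 a broad one. The counts of fibroblast, epithelial and immune markers with a region were 11 of 12, 3 of 18 and 0 of 7 in WT MEFs, and 8 of 12, 5 of 18 and 0 of 7 in WT wound-healing fibroblasts. In SG MMTV-CAFs 8 fibroblast, 1 epithelial and 1 adipocyte marker carried a broad region. In WT wound-healing fibroblasts 1 epithelial and 1 endothelial marker did. Among the fibroblast markers, Col1a2, Col3a1 and S100a4 were members.

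The sequence of the domains is shown at 4 promoters because the results below turn on these domains and they differ in CG content. Col1a2 held the widest member, Tbx15 the next widest, Meox2 a domain without counterpart in the other types, and Postn the domain with the lowest SG to WT width ratio among those with a TSS and a region in SG MMTV-CAFs. Each line gives the 250 bases before the most upstream protein-coding TSS inside the domain (mm9), with CG dinucleotides in capitals.
Col1a2 promoter, chr6:4454564-4454813, plus strand: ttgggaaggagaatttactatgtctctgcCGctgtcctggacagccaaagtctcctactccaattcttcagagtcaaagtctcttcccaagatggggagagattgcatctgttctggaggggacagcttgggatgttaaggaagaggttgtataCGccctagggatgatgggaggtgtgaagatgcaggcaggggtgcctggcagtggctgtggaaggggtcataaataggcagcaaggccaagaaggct
Tbx15 promoter, chr3:99057433-99057682, plus strand: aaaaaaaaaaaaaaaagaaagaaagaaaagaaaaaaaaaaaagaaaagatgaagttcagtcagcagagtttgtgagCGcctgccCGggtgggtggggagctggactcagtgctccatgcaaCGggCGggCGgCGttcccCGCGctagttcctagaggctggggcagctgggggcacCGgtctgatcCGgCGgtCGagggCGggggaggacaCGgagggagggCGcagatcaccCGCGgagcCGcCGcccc
Meox2 promoter, chr12:37834877-37835126, plus strand: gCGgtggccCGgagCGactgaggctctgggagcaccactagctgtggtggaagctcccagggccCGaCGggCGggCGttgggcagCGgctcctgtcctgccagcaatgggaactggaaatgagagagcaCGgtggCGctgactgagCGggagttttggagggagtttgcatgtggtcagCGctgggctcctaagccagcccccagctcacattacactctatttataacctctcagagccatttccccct
Postn promoter, chr3:54164781-54165030, plus strand: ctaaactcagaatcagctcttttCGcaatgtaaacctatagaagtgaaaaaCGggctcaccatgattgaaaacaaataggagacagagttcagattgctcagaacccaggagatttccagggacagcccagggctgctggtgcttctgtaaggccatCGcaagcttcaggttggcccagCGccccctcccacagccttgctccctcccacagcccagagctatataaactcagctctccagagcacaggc
Col1a2 and Postn held 2 and 4 CG in these bases, and Meox2 and Tbx15 held 12 and 19. Over the whole domains the CpG ratio (observed over expected) was also lower at Postn (0.187) and Col1a2 (0.237) than at Tbx15 (0.395) and Meox2 (0.475). Over all members the median of that ratio was 0.476, close to that of the other broad regions (0.498) and below that of narrower regions at a protein-coding TSS (0.553). It was 0.27 in the 147 members without a protein-coding TSS and 0.228 in the 37 without counterpart, 28 of which had no such TSS. Median GC content was 50.2% in members and 50.4% in the other broad regions.

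Most members covered a gene start. A protein-coding TSS lay inside 1695 members (92.0%, 90.7 to 93.2%), near the 93.3% of all broad regions and above the 32.7% of regions of at most 4000 bp. In all, 2010 genes had a TSS in a member, 17.4% of the 11556 protein-coding genes with H3K4me3 at a TSS in WT MMTV-CAFs. A further 82 members lay inside a gene without its TSS, and 65 touched no protein-coding gene. Several genes shared a domain in 327 members (17.8%, against 18.3% of all broad regions), where the mark cannot be assigned to one of them. Among the members named below, this held for Fosl1 (with Ccdc85b), Birc2 (C330006D17Rik), Cdk4 (Tspan31), Ltbp2 (D030025P21Rik), Pbx2 (Gpsm3), Zeb1 (Gm10125), Fbn1 (Gm9913) and Pdgfa (6330403L08Rik), and also for S100a4 (S100a3).

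The extra width lay mostly on the gene's side of the TSS. In the 1368 members with the TSS of a single protein-coding gene, the domain reached a median of 1079 bp upstream and 3625.5 bp downstream of the TSS, and 1303 (95.2%) reached farther downstream, near the 94.0% of other broad regions and 90.5% of regions of at most 4000 bp with a single TSS. Compared with the WT MEF region at the same gene, the WT MMTV-CAF domain extended a median of 290 bp farther upstream and 1370 bp farther downstream (1354 pairs). Against WT wound-healing fibroblasts these medians were 381 and 1393 bp (1353 pairs). Regions of at most 4000 bp at a single TSS also extended farther than their WT MEF partners, by 120 and 315 bp. The other broad regions extended by 255 and 1130 bp.

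**Figure D2:**
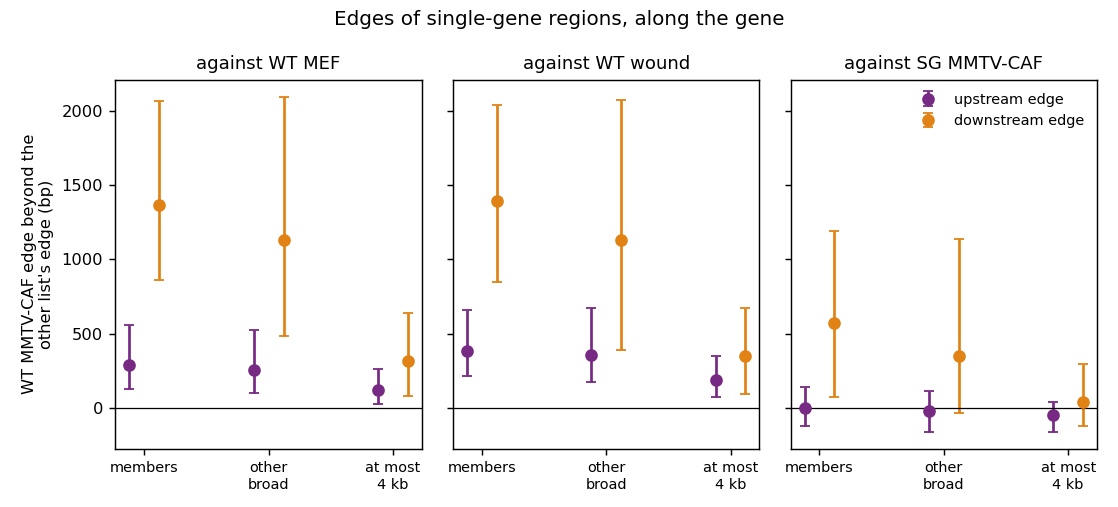
How far the edge of the WT MMTV-CAF region lay beyond the edge of the region in WT MEFs, WT wound-healing fibroblasts and SG MMTV-CAFs (y axis, bp), for the upstream and downstream edge relative to the gene; points are medians and bars run from the lower to the upper quartile. At members the downstream edge differed by a median of 1370, 1393 and 570 bp in the 3 panels and the upstream edge by 290, 381 and -4 bp.

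Col1a2, which encodes the alpha-2 chain of type I collagen, had the widest member (chr6:4454303-4475912). Its H3K4me3 region spanned 21610 bp in WT MMTV-CAFs, 10048 bp in SG MMTV-CAFs, 3648 bp in WT MEFs, 3461 bp in KI MEFs, 3569 bp in SG MEFs, 3446 bp in WT wound-healing fibroblasts and 1985 bp in SG wound-healing fibroblasts. Only the MMTV-CAF lists passed the threshold there, and the domain ran 21099 bp downstream of the TSS but 511 bp upstream. It held 11 H3K27ac summits and 4 Prrx1 summits of WT MMTV-CAFs. The fold enrichment of this region over input was 5.76, below the median of 9.47 over all members.

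Tbx15, a T-box factor of skeletal and skin mesenchyme, differed from Col1a2 in the SG list. Its domain (chr3:99051158-99069170) spanned 18013 bp in WT and 18193 bp in SG MMTV-CAFs. It spanned 2560 bp in WT MEFs, 2416 bp in SG MEFs, 3299 bp in WT wound and 3190 bp in SG wound fibroblasts, but 8902 bp in KI MEFs. Tbx15 was the widest of the 11 members that were broad in KI MEFs. The next widest there, Cdk12, a kinase of elongating RNA polymerase II, reached 4687 bp.

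Itga5, the alpha subunit of the fibronectin receptor, spanned 11658 bp in WT and 5201 bp in SG MMTV-CAFs, 3527 bp in WT MEFs and 3751 bp in WT wound-healing fibroblasts. Lasp1, an actin-binding adaptor, spanned 12415, 6105, 3726 and 3689 bp in the same order. Capn2, the catalytic subunit of a calcium-dependent protease, spanned 11080, 6817, 3377 and 2663 bp. At all 3 genes the SG MMTV-CAF domain was above the threshold, at 0.446 to 0.615 of its WT width.

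Fosl1, which encodes the AP-1 subunit FRA1, shared a domain with Ccdc85b that spanned 11415 bp in WT and 5591 bp in SG MMTV-CAFs, with 3411 and 3322 bp in WT MEFs and WT wound-healing fibroblasts. Tead3, a DNA-binding partner of YAP, spanned 11406 bp in WT but 3814 bp in SG MMTV-CAFs, close to its 3620 bp in WT wound-healing fibroblasts. Tead3 was the only one of the 12 widest members with a TSS that was not broad in SG MMTV-CAFs. Ahcyl1, a regulator of calcium release and ion transport, spanned 11762 and 8808 bp, and the RNA-binding gene Cirbp 12163 and 6290 bp. Tatdn2 was as wide in SG (10919 bp) as in WT MMTV-CAFs (10937 bp).

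**Figure D3:**
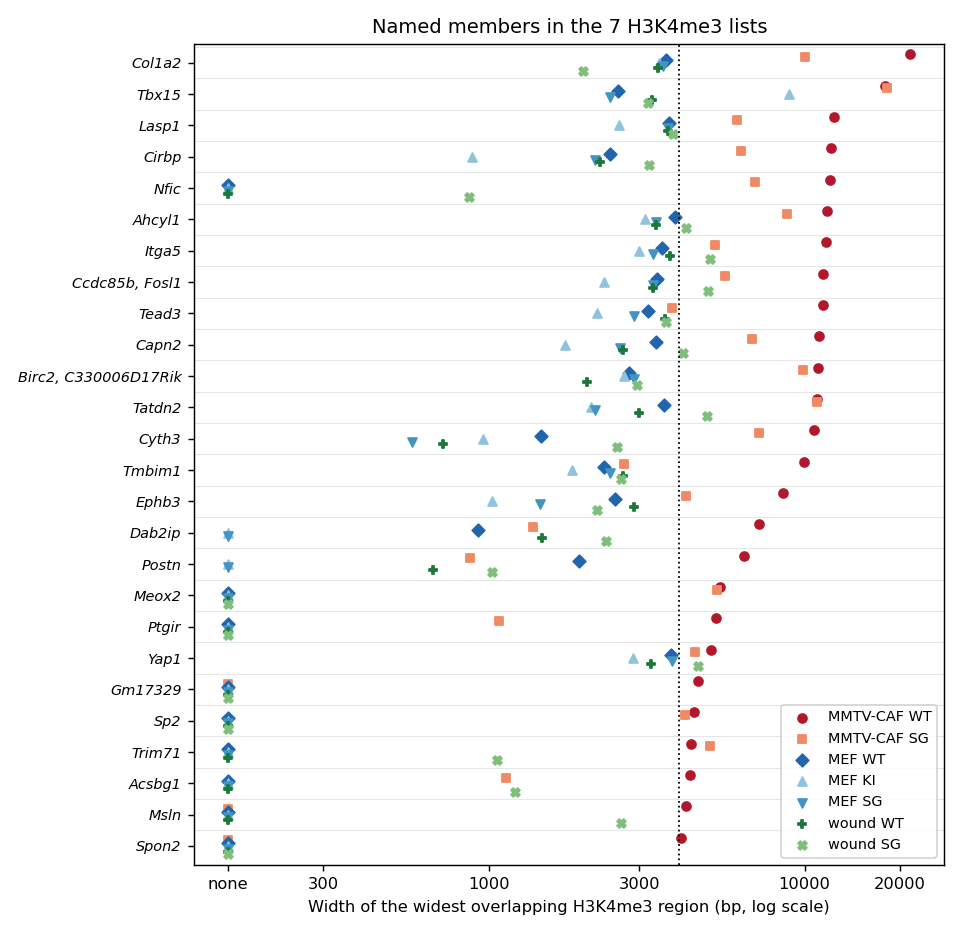
Width of the widest H3K4me3 region (x axis, bp, log scale; "none" marks lists without a region) at each named member (rows, ordered by width in WT MMTV-CAFs) in the 7 lists; the dotted line is 4000 bp. Red circles lie right of the line by the choice of members; orange squares (SG MMTV-CAFs) range from none at Msln, Spon2 and Gm17329 to 18193 bp at Tbx15.

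Only 9 of the 37 members without counterpart in WT MEFs and WT wound-healing fibroblasts held a protein-coding TSS. Meox2, a homeobox gene of the mesenchyme, had one of the clearest patterns (chr12:37834628-37840037): 5410 bp in WT and 5290 bp in SG MMTV-CAFs, and no region in any of the 5 MEF and wound lists. None of those 5 lists held an H3K27ac summit there either, while the WT and SG MMTV-CAF lists held 2 and 1. Trim71, an RNA-binding ubiquitin ligase of early development, spanned 4356 bp in WT and 5031 bp in SG MMTV-CAFs and 1061 bp in SG wound-healing fibroblasts. Sp2, a zinc-finger factor, spanned 4467 and 4184 bp in WT and SG MMTV-CAFs.

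Other members of this kind were narrower in SG MMTV-CAFs or had no region there. Ptgir, the prostacyclin receptor, spanned 5254 bp in WT and 1080 bp in SG MMTV-CAFs, and the acyl-CoA synthetase gene Acsbg1 4346 and 1133 bp. Msln (mesothelin), Spon2, a secreted matrix protein, and Gm17329 had domains of 4206, 4072 and 4597 bp in WT MMTV-CAFs and no region in SG MMTV-CAFs. Msln nevertheless carried 2631 bp in SG wound-healing fibroblasts.

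Several of these 37 were second domains of a gene with another broad region at a TSS. Gm17329 lies inside Col1a1, the gene of the alpha-1 chain of type I collagen. The Col1a1 promoter region lay 463 bp away and spanned 14732 bp in WT MMTV-CAFs, 9921 bp in SG MMTV-CAFs, 4841 bp in WT MEFs and 9927 bp in WT wound-healing fibroblasts. Nfic, a nuclear factor I gene, had a member of 12052 bp over an internal TSS with no region in WT MEFs or WT wound-healing fibroblasts. Its other TSS, 3920 bp away, held a second member of 5183 bp that spanned 3542 and 3688 bp in those types. At Pdgfrb, a receptor for platelet-derived growth factor, a member of 5860 bp inside the gene lay 729 bp from a promoter region of 6499 bp.

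Among the 82 members inside a gene without its TSS, the gene's own TSS carried another member in 22, another broad region in 25, a narrower region in 24 and none in 11. In 8 of these genes, Fstl1 among them, the region over the TSS lay within 1000 bp. The longest were 2 members inside Myh9, the heavy chain of non-muscle myosin IIA, of 12852 and 10888 bp. In SG MMTV-CAFs they spanned 6357 and 2350 bp, and in WT MEFs 264 and 224 bp. The second of them held 5 Prrx1 summits of WT MMTV-CAFs. Fstl1, a secreted follistatin-like protein, held a member over its TSS (5153 bp in WT and 5168 bp in SG MMTV-CAFs) and a second inside the gene (10573 and 7415 bp).

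These intragenic members differed from those at a TSS in the SG list, which the rule did not use. A width above 4000 bp in SG MMTV-CAFs was found at 37.8% of them (28.1 to 48.6%, n = 82) and at 55.5% of the members with a TSS (53.1 to 57.8%, n = 1695). The SG region was narrower than 0.5 of the WT width in 32.9% (23.7 to 43.7%) of the intragenic and in 4.01% (3.18 to 5.05%) of the TSS members. The 65 members outside protein-coding genes, which also lack such a TSS, had 64.6% (52.5 to 75.1%) and 3.08% (0.848 to 10.5%) by these measures. The median fold enrichment of the intragenic members in WT MMTV-CAFs was lower, 4.72 against 9.65. The part of enrichment in this difference was not tested.

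Of all members, 1013 (55.0%, 52.7 to 57.3%) were over 4000 bp wide in SG MMTV-CAFs, against 70.6% of all broad WT MMTV-CAF regions and 95.4% (94.1 to 96.5%) of the other 1160. A further 796 members had over 2000 and up to 4000 bp in SG MMTV-CAFs, 25 had at most 2000 bp and 8 had no region. The median SG to WT width ratio was 0.865 (0.852 to 0.873) at members and 0.93 (0.918 to 0.94) at the other broad regions. At paired regions of at most 4000 bp the ratio was 1.04, and at those with a protein-coding TSS, the kind most members are, it was 0.984. In SG MMTV-CAFs 375 members (20.4%) were wider than in WT, against 29.9% of the other broad regions and 42.7% of regions of at most 4000 bp. Of the last group 26.9% had no region in SG MMTV-CAFs and were counted as not wider.

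Members were chosen for width in the WT list, and the part of that choice in these values was not tested. The same rule applied to the SG MMTV-CAF list found 1454 regions, of which 70.0% (67.6 to 72.3%) were broad in WT MMTV-CAFs, and the median WT to SG width ratio was 0.981. Members were also narrower in WT than the other broad regions, and the shares are therefore also given by WT width. From over 4000 to 4500 bp, 38.7% of 701 members and 81.1% of 74 other broad regions were broad in SG MMTV-CAFs. Above 8000 bp, 85.5% of 62 members and 98.3% of 242 others did.

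The share broad in SG MMTV-CAFs differed between the classes set by the other WT types. It was 64.2% (61.3 to 66.9%) for members whose widest region there was over 3000 bp and 39.4% (35.4 to 43.5%) for those over 2000 and up to 3000 bp. It was 29.7% (17.5 to 45.8%) for the 37 without counterpart, of which 11 were broad and 8 had no region in SG MMTV-CAFs. Their median ratio was 0.379. Without 3 members inside Yap1, in a chromosome 9 segment described further on, 11 of 34 were broad (32.4%, 19.1 to 49.2%), 5 had no region, the median ratio was 0.474 and 38.2% held a Prrx1 summit. The classes between them, of 31 and 82 members, had 38.7% (23.7 to 56.2%) and 52.4% (41.8 to 62.9%), and their intervals overlapped those of both neighbours.

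**Figure D4:**
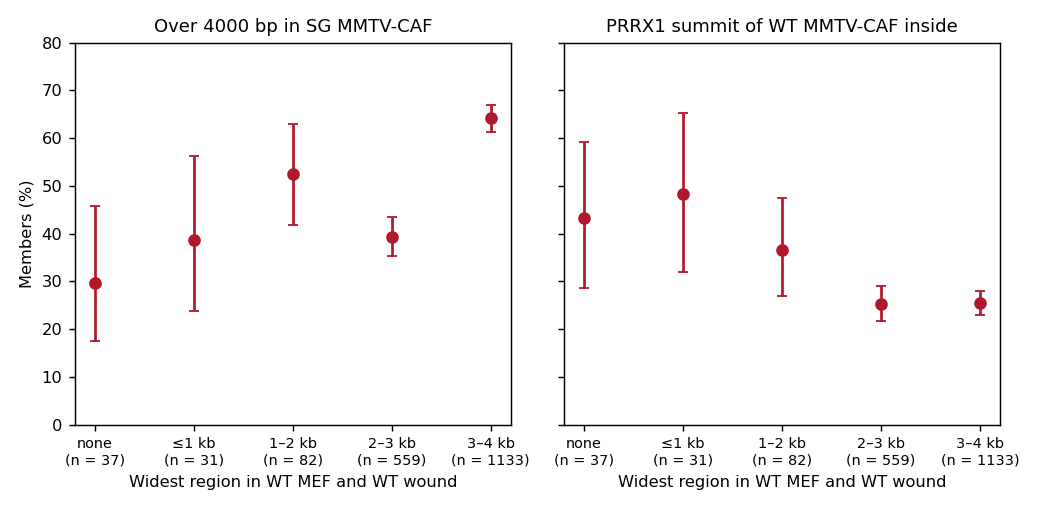
Share of members (y axis, %) that were over 4000 bp wide in SG MMTV-CAFs (left) and that held a WT MMTV-CAF Prrx1 summit (right), by the widest H3K4me3 region in WT MEFs and WT wound-healing fibroblasts (x axis); bars are Wilson 95% intervals over regions. The share broad in SG MMTV-CAFs was 64.2% in the widest class and 29.7% in the class without a region, while the Prrx1 share was 25.4% and 43.2%.

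The rule barred regions over 4000 bp in WT MEFs and WT wound-healing fibroblasts, so the lists of the same types after Prrx1 deletion or mutation are not free of the choice. In SG MEFs 34 members (1.85%) were broad, against 22.2% of all broad WT MMTV-CAF regions, and in KI MEFs 11 (0.597%) against 9.59%. SG wound-healing fibroblasts had 462 broad members (25.1%, 23.2 to 27.1%) against 48.5%. The whole lists differed as well: 1679 regions were over 4000 bp in SG wound and 949 in WT wound fibroblasts. In MEFs there were 700 in SG and 320 in KI, against 987 in WT. The median member width was 2918 bp in WT and 3419 bp in SG wound-healing fibroblasts.

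Among members with a TSS and a region in both MMTV-CAF lists, the lowest SG to WT ratio (0.136) was at Postn (periostin), a matricellular protein of activated fibroblasts (chr3:54162165-54168594). Its domain spanned 6430 bp in WT and 875 bp in SG MMTV-CAFs, 1929 bp in WT MEFs, 666 bp in WT wound and 1026 bp in SG wound-healing fibroblasts, and no region was listed in KI or SG MEFs. Postn held 2 H3K27ac summits in WT and 1 in SG MMTV-CAFs and no Prrx1 summit in any list. Dab2ip, a Ras GTPase-activating protein, spanned 7191 bp in WT and 1381 bp in SG MMTV-CAFs, and Tmbim1 9972 and 2681 bp. Myl9, a regulatory light chain of myosin, spanned 4664 and 1870 bp. At the other end, chosen after the values were seen, Etv1, an ETS factor, spanned 4042 bp in WT and 11673 bp in SG MMTV-CAFs, and Osmr, the oncostatin M receptor, 5672 and 9336 bp.

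Matrix genes lay on both sides of the threshold in SG MMTV-CAFs. Of 8 fibrillar collagen genes with H3K4me3 at a TSS, 2 were members (Col1a2 and Col3a1) and 3 had other broad regions. Of all 11556 genes with H3K4me3 at a TSS, 17.4% had a member and 1345 (11.6%) another broad region. Col3a1 spanned 7979 bp in WT and 8563 bp in SG MMTV-CAFs. Of 11 other collagen genes 4 were members (36.4%). Col6a3 (6441 and 6205 bp) and Col8a1 (6238 and 5968 bp) were broad in SG MMTV-CAFs, whereas Col16a1 had 4727 and 3472 bp and Col6a1 4053 and 2687 bp. Of 20 matricellular and matrix genes 4 were members, near the share of all genes: Postn, the lysyl oxidase gene Loxl2 (6254 bp in WT and 4003 bp in SG), the fibrillin gene Fbn1 (5655 and 4473 bp) and Ctgf (4365 and 3425 bp).

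The TGF-beta pathway list had 7 members among 21 genes with H3K4me3, a share of 33.3% against the 17.4% of all such genes. The domain of the latent TGF-beta binding protein gene Ltbp2, shared with D030025P21Rik, spanned 10202 bp in WT and 9936 bp in SG MMTV-CAFs, 3733 bp in WT MEFs and 1406 bp in WT wound-healing fibroblasts. The co-receptor gene Tgfbr3 spanned 8481 and 6792 bp in WT and SG MMTV-CAFs. The signal transducers Smad2 (5328 and 3251 bp) and Smad4 (4584 and 3530 bp) were below the threshold in SG MMTV-CAFs. Ltbp3 (4161 bp), the ligand gene Tgfb3 (4137 bp) and Ltbp4 (8245 bp) were above it, Ltbp4 being wider than the 4470 bp in WT. All 21 genes carried H3K4me3, 9 of them as broad regions shared with another type, against 11.6% of all genes with H3K4me3.

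Of 22 growth factor genes of the stroma 8 were members, 36.4% against 17.4% of all genes with H3K4me3. Of these 8, 5 were broad in SG MMTV-CAFs (55.0% of all members were). Hgf, the ligand of the MET receptor, spanned 4566 bp in WT and 6821 bp in SG MMTV-CAFs, 900 bp in WT MEFs and 2639 bp in KI MEFs, with no region in SG MEFs or WT wound-healing fibroblasts and 667 bp in SG wound-healing fibroblasts. The EGF-receptor ligand gene Hbegf spanned 5706 and 2848 bp, and the insulin-like growth factor gene Igf1 4948 and 2689 bp. Pdgfa (5781 and 5316 bp) and the KIT ligand gene Kitl (5129 and 5520 bp) were broad in both.

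Among 18 inflammatory genes, Ccl2, Nfkbia and Nfkb1 were members, 16.7% against 17.4% of all genes with H3K4me3. The chemokine gene Ccl2 spanned 5283 bp in WT and 5122 bp in SG MMTV-CAFs, 1321 bp in WT MEFs and no region in WT wound-healing fibroblasts, but 2418 bp in SG wound-healing fibroblasts. Of 20 protease and inhibitor genes 4 were members, also near that share. The urokinase gene Plau had 5322 bp in WT and 2318 bp in SG MMTV-CAFs, the stromelysin gene Mmp11 4137 and 3548 bp, and the inhibitor gene Timp1 5068 and 5386 bp. Of 16 contractile genes Cald1, Myl9 and Tgfb1i1 were members, 18.8% and also near the share of all genes, and 11 others had broad regions shared with another type, where 11.6% of all genes with H3K4me3 had one. Caldesmon (Cald1) spanned 6911 bp in WT and 4234 bp in SG MMTV-CAFs. The integrin list gave 3 members of 14 genes (21.4%), Itga5, Itgb5 (5800 and 6451 bp) and Itgb1 (4605 and 4106 bp). All 3 were broad in SG MMTV-CAFs, against 55.0% of all members.

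Transcription factors among the members included 4 of 15 AP-1 genes, 26.7% against 17.4% of all genes with H3K4me3. All 4 were broad in SG MMTV-CAFs, where 55.0% of all members were: Fosl1, Maff (5291 bp in WT and 4026 bp in SG), Fos (4973 and 4049 bp) and Atf3 (4158 and 5967 bp). Of 16 mesenchymal transition factors 2 were members (12.5%), Foxs1 and Zeb1. Foxs1, a forkhead factor, spanned 9635 bp in WT and 3396 bp in SG MMTV-CAFs, 1163 bp in WT MEFs and no region in WT wound-healing fibroblasts. Zeb1, a repressor of epithelial genes, spanned 4883 and 4736 bp. Of 15 T-box and regional factors 3 were members, Tbx15, Meox2 and Tbx18. Tbx18 had 6390 bp in WT and 7753 bp in SG MMTV-CAFs. Sox9, a chondrogenic factor, was the only member among 8 skeletal factors (12.5%) and had 4988 and 4789 bp. The Prrx1 gene itself was no member, with 13259 bp in WT MMTV-CAFs and 8628 bp in WT MEFs.

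The remaining lists with members had shares from 8.33 to 27.3%, against 17.4% of all genes with H3K4me3. The BMP list had 1 of 12 (Fstl1, 8.33%) and the Hippo list 3 of 16 (Tead3, Yap1 and Ctgf, 18.8%). Of 24 axon guidance genes 5 were members (20.8%), led by Ephb3, an ephrin receptor, with 8541 bp in WT and 4228 bp in SG MMTV-CAFs. Plxnd1 (4880 and 5344 bp) and Sema7a (4702 and 4180 bp) followed. Of 22 cell-cycle genes 4 were members (18.2%), and the domain of the kinase gene Cdk4 and Tspan31 spanned 9480 bp in WT and 3343 bp in SG MMTV-CAFs, against Cdkn2b with 6329 and 4966 bp and E2f1 with 5737 and 4880 bp. Of 11 Meis and Pbx genes 3 were members (27.3%): Pknox1 (5493 and 4133 bp), Pbx2 (shared with Gpsm3, 4629 and 2690 bp) and Pbx3 (4080 and 5344 bp). The Notch list (16.7%) gave Notch2 (5458 and 4730 bp) and Maml3 (4214 and 4673 bp), and the NFI and C/EBP list (14.3%) gave Nfic and Cebpg (4769 and 3272 bp).

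The Wnt, interferon, Krüppel-like factor and 4 Hox lists gave 0 members, where 17.4% of all genes with H3K4me3 had one. So did the epithelial, immune, endothelial, pericyte and adipocyte marker lists. Of 11 Krüppel-like factor genes with H3K4me3, 8 had broad regions shared with another type, as did 6 of 8 HoxA, 4 of 5 HoxB and 5 of 8 HoxC genes, against 0 of 3 HoxD, 2 of 20 Wnt and 1 of 15 interferon genes. Over all genes with H3K4me3 that share was 11.6%. The lists are small, and each share carries the counting error of a few genes.

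H3K27ac summits of WT MMTV-CAFs lay inside 1839 members (99.8%), against 99.9% of all broad regions. The members held 44.7 summits per 100 kb and the other broad regions 43.2. The same intervals held a summit in 1818 cases (98.7%) in WT MEFs and in 1806 (98.0%) in WT wound-healing fibroblasts. This held for 26 and 24 of the 37 members without H3K4me3 there. Of the 829 members that were not broad in SG MMTV-CAFs, those with over 2000 bp there held 1721 summits in WT and 1705 in SG, and 1 of these 796 held none in SG. The 33 with less held 72 and 65, and 2 of them held none in SG. Members broad in SG MMTV-CAFs held 2398 and 2630. The whole SG list was 1.14 times as long as the WT list (61603 and 53873 summits), and these counts were not scaled to it.

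A Prrx1 summit of WT MMTV-CAFs lay inside 490 members (26.6%, 24.6 to 28.7%), against 29.4% of all broad regions and 33.8% (31.1 to 36.6%) of the other 1160. Per 100 kb the members held 6.27 summits, the other broad regions 6.48 and the narrower regions 7.51. The share with a summit was 20.8% at members of at most 4500 bp and 48.4% above 8000 bp. Most bound members held 1 summit (413), 63 held 2, 10 held 3 and 4 held 4 or more. Prrx1 summits of WT wound-healing fibroblasts lay in 321 members (17.4%, against 21.8% of all broad regions) and those of WT MEFs, whose list is the shortest (3048 summits, against 8000 in WT MMTV-CAFs), in 54 (2.93%, against 3.06%). Whether each Prrx1 list pools repeat ChIPs is not given in the sources used here.

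Members with and without a Prrx1 summit had similar shares in SG MMTV-CAFs, within counting error. Of the 490 members with a summit 55.5% (51.1 to 59.9%) were broad in SG MMTV-CAFs, and of the 1352 without one 54.8% (52.1 to 57.4%). From over 4500 to 8000 bp of WT width the share was lower with a summit (50.0 against 57.1%, 64.6 against 69.9% and 70.0 against 76.7%), and above 8000 bp it was higher (93.3 against 78.1%), but every pair of intervals overlapped. At the other broad regions the shares were 98.2% (96.4 to 99.1%) with and 94.0% (92.1 to 95.5%) without a summit. Those with a summit were wider (median 6724.5 against 5951 bp), and within each range of WT width the intervals overlapped.

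The TAATTA word, a core shared by many paired-type homeodomains, was searched on both strands, on which it reads the same. It occurred in 60.3% of members, 70.9% of other broad regions and 25.8% of all WT MMTV-CAF regions, at 22.6, 23.4 and 21.3 per 100 kb. Within 50 bp of a summit it was found at 19.4% (16.4 to 22.8%) of the 588 summits inside members, at 17.2% inside other broad regions, at 16.7% inside regions of at most 4000 bp and at 31.8% (30.4 to 33.2%) of the 4427 summits outside H3K4me3 regions. The windows show the 2 highest-scored summits in the named members, at Yap1 and Foxs1, and the 4 highest-scored that carry the word, chosen after their values were seen. Each is 101 bases centred on the summit (mm9), with the word in capitals.
Yap1 summit, chr9:8003139-8003239, plus strand: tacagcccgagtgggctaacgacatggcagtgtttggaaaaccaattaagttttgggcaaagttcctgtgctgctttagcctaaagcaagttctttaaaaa
Foxs1 summit, chr2:152751401-152751501, plus strand: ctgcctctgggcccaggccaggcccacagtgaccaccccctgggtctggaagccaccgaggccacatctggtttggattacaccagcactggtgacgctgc
Ephb3 summit, chr16:21208122-21208222, plus strand: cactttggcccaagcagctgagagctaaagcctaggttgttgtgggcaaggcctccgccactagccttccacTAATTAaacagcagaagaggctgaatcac
Col1a2 summit, chr6:4462209-4462309, plus strand: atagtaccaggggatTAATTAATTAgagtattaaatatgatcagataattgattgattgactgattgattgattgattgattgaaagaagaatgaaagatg
Cyth3 summit, chr5:144403446-144403546, plus strand: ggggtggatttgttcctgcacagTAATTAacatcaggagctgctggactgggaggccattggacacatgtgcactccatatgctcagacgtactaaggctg
Pbx2 summit, chr17:34728853-34728953, plus strand: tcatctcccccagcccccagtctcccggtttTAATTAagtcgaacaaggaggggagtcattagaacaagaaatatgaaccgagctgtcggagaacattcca
The Yap1 summit, in an intron, had a −log10 p of 44.5 and the Foxs1 summit, outside genes in the annotation, 39.5. Neither window held TAATTA. The others lay in introns of their genes, with −log10 p of 10.1 (Ephb3), 8.78 (Col1a2), 8.7 (Cyth3) and 8.53 (Pbx2), and the Col1a2 window held 2 overlapping words. Cyth3, an exchange factor for ARF GTPases, had a member of 10700 bp in WT and 7148 bp in SG MMTV-CAFs with 3 Prrx1 summits. The Foxs1 member held 2, and Ephb3 held 3.

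One segment of chromosome 9 stood apart and held the member with the most Prrx1 summits. Yap1, the transcriptional effector of the Hippo pathway, had a member at its TSS (chr9:8000915-8005976) of 5062 bp in WT and 4484 bp in SG MMTV-CAFs with 6 Prrx1 summits. Birc2, a ubiquitin ligase that limits cell death, shared one with C330006D17Rik of 11049 and 9882 bp with 4. Inside Yap1 lay 3 more members of 7112, 4783 and 4457 bp, with 2, 2 and 3 Prrx1 summits and no H3K4me3 region in any other list. Their fold enrichments of 1.79, 1.83 and 2.59 were the lowest of all members.

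In the 1 Mb around these genes (chr9:7500001-8500000) WT MMTV-CAFs had 39 H3K4me3 regions with a median fold of 1.77, against 3.58 over the whole list. SG MMTV-CAFs had 10 with a median of 7.62, and the 5 MEF and wound lists had 8 to 11. The WT MMTV-CAF lists held 123 H3K27ac and 114 Prrx1 summits in this 1 Mb, against averages of 23.7 and 4.44 per Mb over chromosome 9, and SG MMTV-CAFs held 21 H3K27ac summits. Regions and summits were thus dense there in WT MMTV-CAFs, with low H3K4me3 fold, and the H3K4me3 and H3K27ac lists of SG MMTV-CAFs did not show this. The input libraries were not analysed here, so the DNA copy number of this segment is not known, and its part in the summit counts and scores at Yap1 and Birc2 was not tested. Without the 5 members of this segment the share with a Prrx1 summit was 26.4%.

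**Figure D5:**
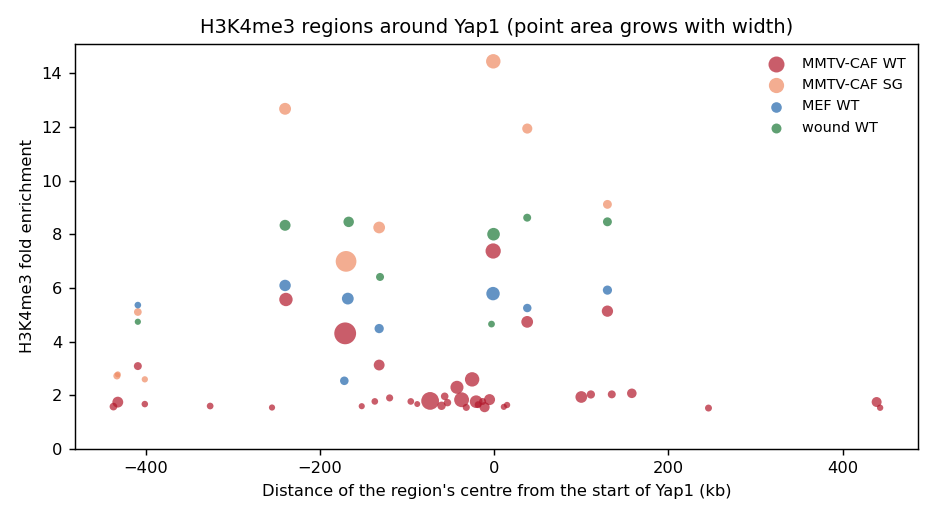
Fold enrichment over input (y axis) of the H3K4me3 regions within 1 Mb around Yap1 against the distance of their centre from the start of Yap1 (x axis, kb), in 4 lists; point area grows with region width. WT MMTV-CAFs have 39 regions with a median fold of 1.77, most of them without a partner in SG MMTV-CAFs (10 regions, median 7.62).

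Regions on either side of the threshold were alike in width. The narrowest members spanned 4001 bp (an intergenic region of chromosome 15 and one inside Abcg1) and 4002 bp (Sirpa). The widest regions that missed it, at Hes7, Ccdc86 and Papd4, spanned 3999, 3999 and 3997 bp, and Hes7 had 5865 bp in SG MMTV-CAFs. In all, 701 members (38.1%) were at most 4500 bp wide. The members were spread over all 20 chromosomes of the WT MMTV-CAF list, from 51.9% of the broad regions on chromosome 8 to 71.4% on chromosome X. The MEF and wound lists covered 21 chromosomes, and the part of sex in the share on chromosome X was not tested.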

How the data were processed

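Peak lists of 17 ChIP-seq libraries were used, 1 per group, with groups taken from the sample titles. The authors used Trimmomatic for trimming and Bowtie for alignment (mm9), discarded duplicate reads, and ran MACS2 with the matching input as control, in broad mode for H3K4me3. In the deposited H3K4me3 lists each region has a MACS2 fold, which is the ratio of ChIP to input signal, and significance values as −log10 p and q. The deposited score was not used. The deposited H3K27ac and Prrx1 lists give single-base summits with a −log10 p of at least 5 and 3, the latter below the cutoff given in the methods. Library totals are not in the lists, so the sequencing depth is unknown, and region widths can vary with depth and enrichment.

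Width was end minus start, and the widest region overlapping by at least 1 bp stood for a member in another list. Genes came from GENCODE vM1 and sequence from NCBIM37, the same build as mm9. Python 3.11.15, pandas 2.3.3, statsmodels and pysam were used, and the interval code was tested on simulated data. With 1 library per group no test was run.

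Members, gene lists and the naming rule were chosen with earlier results of these data known. Names came, among members with a protein-coding TSS, from the 12 widest, the 8 widest without counterpart, up to 3 genes per gene list, the 5 with most Prrx1 summits, and up to 5 absent and the 5 of lowest ratio in SG MMTV-CAFs. Regions next to the threshold and Prrx1 were also named. Genes named beyond this rule were chosen after their values were seen: the other list genes, Etv1, Osmr, Cdk12, Gm17329's host Col1a1, Pdgfrb, Myh9 and the members inside Yap1. Alternatives were other width thresholds, widest shares or numbers, joined regions, overlap rules, rescaled widths, TSS and summit definitions.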

Additional observations from a re-analysis of the deposited data

Results flagged for a closer look

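The median log2 width ratio of members to WT had opposite signs between cell types, which was not tested because each group had 1 library. It was -0.21 in SG MMTV-CAFs, -0.11 in SG MEFs and -0.38 in KI MEFs, but 0.22 in SG wound-healing fibroblasts. The ratios were of like size over the whole MEF and wound lists, so this is not particular to the members there: at regions of at most 4000 bp they were -0.1 in SG MEFs, -0.4 in KI MEFs and 0.19 in SG wound-healing fibroblasts, and at the other broad regions -0.12, -0.47 and 0.17. In SG MMTV-CAFs they were 0.06 and -0.11, and the linear ratio at regions of at most 4000 bp with a protein-coding TSS was 0.984. The rule set a minimum width for members in WT MMTV-CAFs and a maximum in WT MEFs and WT wound-healing fibroblasts, and the part of this choice in the signs was not tested.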

How the results depend on the processing

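The number of members depended on how broad was defined. It was 1167 at 5000 bp in all 3 WT lists, 579 with the widest 5% of each list, 297 with an equal number of widest regions, 709 when a region over 3000 bp in another type removed a member, and 719 with rescaled widths (added after seeing the data). It was 2650 at 3000 bp, 2111 with regions within 1000 bp joined (1646 of the 1842 lay in a joined member) and 1902 when the overlap had to cover 0.5 of the member's length.

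The share broad in SG MMTV-CAFs was 89.7% at 3000 bp, 19.1% at 5000 bp, 47.3% with SG widths rescaled and 60.0% with SG regions joined. The rescaling used the ratio of 1.04 over all paired narrower regions. Rescaling by the 0.984 at those with a protein-coding TSS was not run. The share broad in SG MMTV-CAFs was 76.9% for members of the widest 5%, 77.1% for the equal number and 40.3% for the 3000-bp margin. The rule applied to SG MMTV-CAFs, chosen after seeing the data, gave the reverse share: 70.0% of its regions were broad in WT MMTV-CAFs. With the 3000-bp margin and the equal number, also chosen after seeing the data for these lists, the shares were 0.282% and 6.73% in SG MEFs, 0.423% and 2.02% in KI MEFs and 10.0% and 39.4% in SG wound-healing fibroblasts. The median SG to WT ratio was 0.877 with SG regions summed. A TSS of any annotated gene lay in 94.5%, and Prrx1 summits of at least 5 and 10 in −log10 p lay in 22.4% and 6.89%. These shifts come with the altered definitions themselves.

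No replicate was left out. No paired analysis was possible because each group had 1 library. The sequencing depth behind the lists is unknown, which limits every width given.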
